A study of Mus musculus with 12 samples.

Results

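Chemokines are small secreted proteins that steer leukocytes along gradients, and they act through G protein-coupled receptors on the migrating cells. The family was taken as every protein-coding gene whose symbol was Ccl, Cxcl, Ccr, Cxcr or Ackr followed by a number and at most 1 letter, plus Cx3cl1, Cx3cr1, Xcl1 and Xcr1. This gave 58 genes among the 56205 identifiers of the count table, 24871 of which had a count. A gene was called detected with 10 or more counts in at least 6 of the 12 libraries, and 26 of the 58 were. Cxcl11 matched the symbols but is annotated as a polymorphic pseudogene in GENCODE M21, so it was left out of the 58.

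RNA was measured in whole livers of 12 male ob/ob mice, which lack functional leptin and become obese with fatty livers. All 12 mice ate standard chow, and the groups differed in ethionine, an ethyl analogue of methionine: the 6 OBOB_Fibrotic mice received it and the 6 OBOB_FLO mice did not. The labels disagree on how it was given, naming 0.165% DL ethionine in the drinking water (for 2 weeks in the series design) in one field and an injection of 0.15% in another. The study's methods give a further version, drinking water at the lower of these concentrations for a shorter time, so dose, route and duration are not settled here. The labels give no age, although the study's methods state one for the start of ethionine treatment. No lean or leptin-sufficient mice are part of the comparison, so every value is set against an obese liver. The study describes the ethionine-treated ob/ob mouse as a model with microvesicular steatosis and inflammation, and it reports no difference in the collagen gene Col1a1 there. The word fibrotic is used here only as the label of the group.

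Chemokines fall into CC, CXC, CX3C and XC classes by the spacing of the first cysteines of the mature protein. Inflammatory members are switched on by cytokines and microbial products and draw neutrophils, monocytes or effector T cells, whereas homeostatic members are made steadily by stromal cells and position cells at rest. In the liver they are made by Kupffer cells (the resident macrophages), sinusoidal endothelium, stellate cells and hepatocytes. The atypical receptors (Ackr genes) bind chemokines without G protein signalling and clear or redistribute them.

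The class-defining cysteines are shown for the 5 ligands whose mRNA passed the test below, so that the class of each can be read from its sequence. Each line gives part of the coding sequence of an annotated transcript, 5′ to 3′ (GENCODE M21, GRCm38). Where a gene had several, the first by identifier with a start codon, a stop codon and the cysteine pair was used. The capitals mark the codons of the first cysteine pair after the leading 24 codons, which cover most of the signal peptide.
Ccl24: atcccctcatctTGCTGCacgtcctttatt
Ccl6: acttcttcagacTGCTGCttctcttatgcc
Ccl9: gactcttcagatTGCTGCctgtcctataac
Ccl27a: tccagcactagcTGCTGTactcagctctat
Cxcl12: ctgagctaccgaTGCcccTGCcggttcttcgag
In the first 4 the codons were adjacent, the CC arrangement, at codons 33 and 34 in Ccl24, 50 and 51 in Ccl6, 57 and 58 in Ccl9, and 34 and 35 in Ccl27a. In Cxcl12 a single codon (ccc) separated codons 30 and 32, the CXC arrangement.

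Libraries held 17815568 to 20352675 counts in OBOB_Fibrotic and 18275320 to 24814263 in OBOB_FLO (difference of means, two-sided exact permutation test, p = 0.115). Values per library are given as CPM (counts divided by the library total after TMM scaling), and 1 CPM stood for 16.9 to 23.4 counts. The family as a whole held 3044 to 7198 counts per library. One library went against its label: FLO replicate 3 held 3773 counts of Xist, the transcript of the inactive X chromosome, and 4 of the Y-linked Ddx3y, whereas the other 11 held 0 to 4 and 556 to 977, although the series is stated to be male only. Results that rest on it are given with and without it.

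Of the 26 detected members, 8 passed the test between the groups (30.8%), 5 higher and 3 lower in OBOB_Fibrotic, at an adjusted p of 0.01 or less and an absolute log2 fold change over 0.5. Over all 13416 genes tested, 29.9% passed, with 15.9% higher and 14.0% lower, so the share among chemokines was close to that of the transcriptome. The receptors Cxcr1 and Cx3cr1, the scavenging receptor Ackr2 and the ligands Ccl24 and Ccl6 were higher. The ligands Ccl9, Ccl27a and Cxcl12 were lower. CPM of the groups did not overlap for 6 members (23.1%), 3 higher and 3 lower, against 30.4% of all tested genes (15.3% higher and 15.1% lower). One of the 8, Cxcr1, was detected through its fibrotic libraries alone and so had to differ. Without it 7 of 25 members passed (28.0%), 4 higher and 3 lower, and 5 did not overlap (20%), 2 of them higher. Ccl24 and Cx3cr1 also needed fibrotic libraries to meet the detection rule, with FLO counts as low as 6 and 7, and remain in these shares. The median log2 fold change was 0.43 over the 26, with 17 above 0 and 9 below, and 0.03 over all tested genes.

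**Figure D1:**
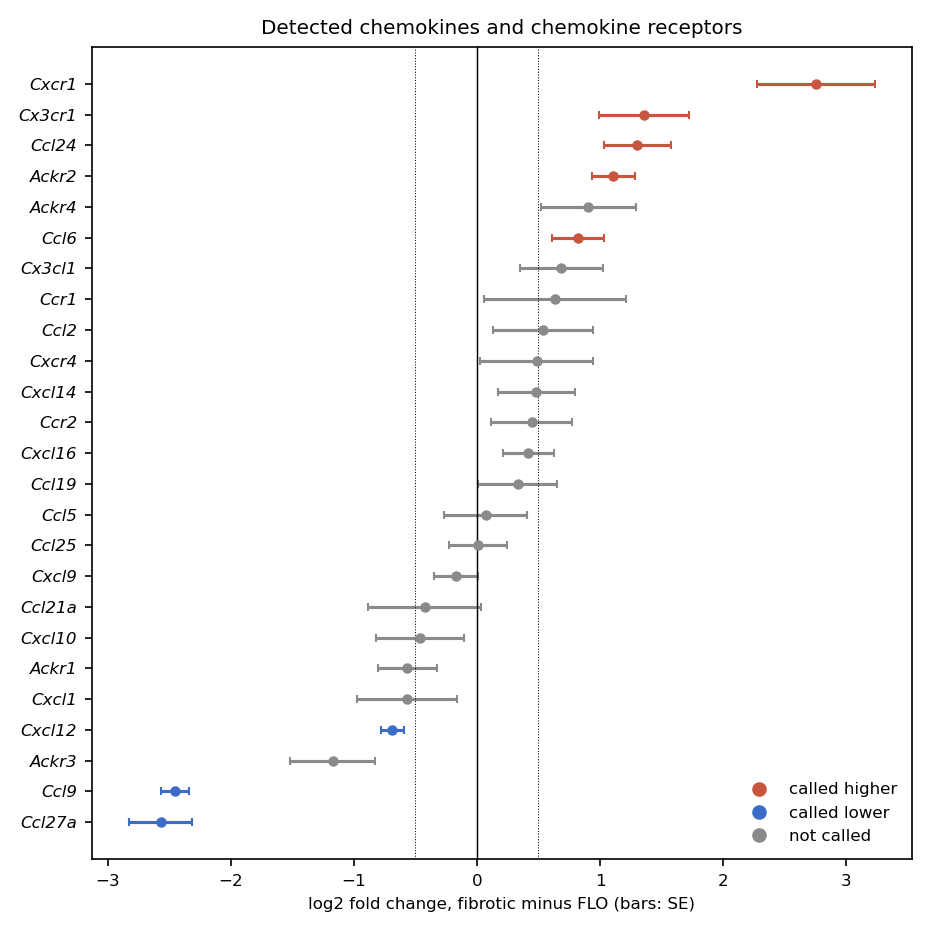
Log2 fold change (OBOB_Fibrotic minus OBOB_FLO) of the detected members reported here with standard errors from the edgeR fit, n = 6 per group, ordered by size and marked by whether they passed the thresholds. Ccl27a and Ccl9 lie lowest, at -2.57 and -2.46, Cxcr1 lies highest at 2.76, and most members lie within 1 unit of 0.

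Cxcl12, a homeostatic CXC ligand of Cxcr4 and Ackr3 that is made by stromal and endothelial cells and retains hematopoietic and immune cells in tissue, was the chemokine with most transcript in these livers. Scaled by transcript length it reached 18.9 CPM per kb in OBOB_Fibrotic and 30.4 in OBOB_FLO. In OBOB_Fibrotic it ran from 94.5 to 120 CPM (median 106) and in OBOB_FLO from 155 to 210 (median 163). Every fibrotic library lay under every FLO library, with means of 106 ± 11.4 and 171 ± 19.7 CPM (SD, n = 6 each). Cxcl12 (ENSMUSG00000061353) fell by 0.69 on the log2 scale (SE 0.094, adjusted p = 2.26e-05), or 1.61-fold. The highest value belonged to FLO replicate 3, and without that library the change was -0.62 (adjusted p = 3.8e-05). In bulk tissue, fewer cells of a type and less RNA per cell cannot be told apart, for this and every other member.

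Cxcl12 alone made up 46.5% to 61.8% of the summed CPM of the 58 members in OBOB_Fibrotic and 56.5% to 68.0% in OBOB_FLO. The sum over all members was 155 to 210 CPM in OBOB_Fibrotic and 259 to 308 in OBOB_FLO, which did not overlap. Without Cxcl12 and Ccl9 the sums overlapped, at 53.2 to 107 CPM and 48.5 to 91.0.

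Neither receptor of Cxcl12 passed with all 12 libraries. Cxcr4, its signalling receptor, ran from 0.306 to 1.86 CPM (median 0.868) in OBOB_Fibrotic and from 0.273 to 1.30 (median 0.733) in OBOB_FLO. The groups overlapped over most of their range, and the log2 fold change of 0.48 (SE 0.458) did not pass (adjusted p = 0.396). Ackr3, which takes up Cxcl12 without G protein signalling, ran from 0.509 to 1.26 CPM (median 0.741) in OBOB_Fibrotic and from 0.711 to 3.50 (median 1.95) in OBOB_FLO. All 6 fibrotic libraries lay under the FLO median, but the log2 fold change of -1.17 (SE 0.348) stood just outside the threshold (adjusted p = 0.0105), and it passed without FLO replicate 3 (-1.29, adjusted p = 0.00744). Markers of sinusoidal endothelium summed to 119 to 157 CPM in OBOB_Fibrotic and 171 to 194 in OBOB_FLO, with none of the 6 at 0 and 1 of 6 called (Kdr, lower). Their part in the Cxcl12 difference was not tested. Stellate markers summed to 193 to 320 and 174 to 264 CPM, and 1 of 6 was called (Lrat, higher). The collagen gene Col1a1, also on that list, had a log2 fold change of -0.22 and was not called (adjusted p = 0.611). Hepatocyte markers summed to 47240 to 79790 CPM in OBOB_Fibrotic and 75270 to 87000 in OBOB_FLO, with none of the 5 at 0 and 2 called lower (Apoa1 and Serpina1c). Alb, which was not called (adjusted p = 0.0803), held 40390 to 68430 and 56480 to 70850 CPM of these sums. Cholangiocyte markers summed to 80.6 to 273 and 47.0 to 87.9 CPM, with none at 0 and 3 of 5 called higher. Spp1 alone held 70.3 to 238 and 39.8 to 76.1 CPM of that, and Krt19 and Krt7 were not called. Mitochondrial genes took 4.93% to 7.88% of counts in OBOB_Fibrotic and 7.3% to 10.2% in OBOB_FLO. The part of these differences in the lower values of Cxcl12, Ccl9 and Ccl27a was not tested.

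**Figure D2:**
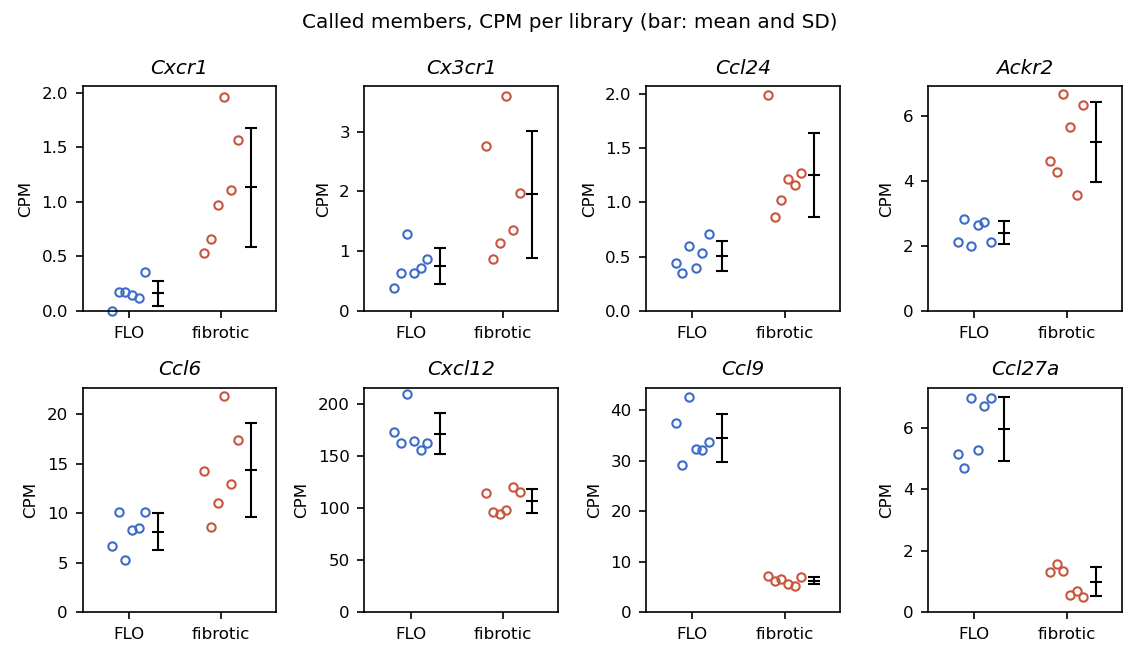
CPM per library of the 8 members that passed the test, with 6 libraries per group as points and the mean and SD as bars, each panel on its own linear axis. Only Cx3cr1 and Ccl6 overlap between the groups, and Ccl9, Ccl27a and Cxcl12 lie lower in every fibrotic library.

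Ccl9 and Ccl6 are related CC ligands that attract monocytes and macrophages and bind Ccr1. They lie next to each other on the minus strand of chromosome 11 (GRCm38), Ccl9 at chr11:83572919-83578636 and Ccl6 at chr11:83587882-83593087, 9246 bases apart. Their mRNAs moved in opposite directions. Ccl9 (ENSMUSG00000019122) ran from 5.29 to 7.13 CPM (median 6.34) in OBOB_Fibrotic and from 29.2 to 42.6 (median 33.0) in OBOB_FLO. The groups stood far apart, and Ccl9 fell by 2.46 on the log2 scale (SE 0.112, adjusted p = 7.21e-10), or 5.49-fold, the lowest adjusted p of any member. Without FLO replicate 3, its highest library, the change was -2.39 (adjusted p = 1.76e-09). Ccl6 (ENSMUSG00000018927) ran from 8.66 to 21.9 CPM (median 13.6) in OBOB_Fibrotic and from 5.26 to 10.1 (median 8.37) in OBOB_FLO. Here 5 of 6 fibrotic libraries exceeded every FLO library, and Ccl6 rose 1.77-fold (log2 fold change 0.82, SE 0.212, adjusted p = 0.00467).

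Per kb of transcript, Ccl9 went from 11.5 CPM in OBOB_FLO to 2.09 in OBOB_Fibrotic and Ccl6 from 5.66 to 9.98, so the order of the neighbours was exchanged. The log2 ratio of Ccl6 to Ccl9 counts within a library (pseudocount 0.5), a measure chosen after the values were seen, was 1.13 ± 0.512 in OBOB_Fibrotic and -2.10 ± 0.544 in OBOB_FLO (SD, n = 6 each). It ran from 0.501 to 1.97 and from -3.01 to -1.53, with a difference of 3.24 between the means. Since it joins members already seen to move in opposite directions, it is a description and was given no test. Without FLO replicate 3, the library with the lowest ratio, the difference was 3.06. Ccl6 lost its call without fibrotic replicate 6 (adjusted p = 0.0122) or FLO replicate 1 (adjusted p = 0.0125), and without FLO replicate 3 it stood at 0.72 (adjusted p = 0.0098).

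**Figure D3:**
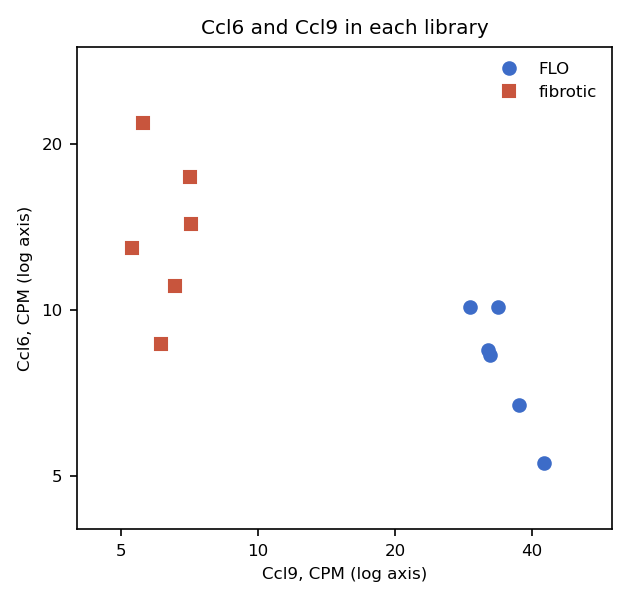
Ccl6 and Ccl9 CPM of each of the 12 libraries. The 6 fibrotic libraries lie at 5.29 to 7.13 CPM of Ccl9 and the 6 FLO libraries at 29.2 to 42.6, while Ccl6 spans 8.66 to 21.9 in fibrotic and 5.26 to 10.1 in FLO libraries.

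The 250 bases before the annotated start of each gene are shown because the neighbours moved in opposite directions and share runs of sequence there. They come from RefSeq (GRCm38.p6), are written 5′ to 3′ on the minus strand, and carry in capitals the exact runs of at least 10 bases that the 300-base windows around both starts have in common. They cover chr11:83593088-83593337 for Ccl6 and chr11:83578637-83578886 for Ccl9.
Ccl6: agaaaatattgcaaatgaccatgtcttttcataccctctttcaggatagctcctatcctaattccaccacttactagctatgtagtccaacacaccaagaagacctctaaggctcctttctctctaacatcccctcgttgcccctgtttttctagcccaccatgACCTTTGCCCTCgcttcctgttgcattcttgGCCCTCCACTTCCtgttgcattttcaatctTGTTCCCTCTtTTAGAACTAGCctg
Ccl9: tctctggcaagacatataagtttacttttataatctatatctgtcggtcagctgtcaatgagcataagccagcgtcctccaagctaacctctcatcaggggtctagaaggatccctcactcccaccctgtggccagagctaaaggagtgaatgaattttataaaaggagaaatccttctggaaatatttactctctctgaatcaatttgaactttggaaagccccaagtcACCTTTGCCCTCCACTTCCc
The windows shared 4 runs, the longest of 13 bases. All 4 lay before the start in Ccl6, whereas in Ccl9 a pair lay before it and the others within the first 50 transcribed bases, so the same bases sat closer to the start, or past it, in Ccl9. A search of both strands found TATAAA in the Ccl9 window at 224, 94 and 92 bases upstream (the last pair overlap), the AP-1 motif TGANTCA at 53 and an NF-kappaB motif at 35. The Ccl6 window held no match to these, nor to the STAT motif TTCNNNGAA or the interferon response motif (GAAA and GAAA, 2 bases apart). Among 32851 promoter windows of this length, 13.6% held TATAAA, 7.81% TGANTCA, 8.46% the NF-kappaB motif, 8.3% the STAT motif and 3.44% the interferon motif. These matches describe letters and were not tested as sites.

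Promoter windows were found for 7 of the 8 called members. Those of Cxcl12, Cxcr1 and Cx3cr1 held none of the 5 motifs. Ackr2 held the NF-kappaB motif at 224 and 64 bases upstream, and 1 start of Ccl27a held TGANTCA 77 bases upstream and the NF-kappaB motif 30 bases downstream.

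The remaining monocyte and macrophage ligands did not pass. Ccl2, which recruits Ccr2-bearing monocytes to injured liver, ran from 0.713 to 4.87 CPM (median 2.52) in OBOB_Fibrotic and from 1.07 to 3.50 (median 1.51) in OBOB_FLO. The fibrotic range enclosed the FLO range, and the difference of 0.54 (SE 0.405) on the log2 scale did not pass (adjusted p = 0.283). Ccl5, a ligand of Ccr1 made mainly by T and NK cells, had medians of 1.53 and 1.61 CPM, a log2 fold change of 0.07 (adjusted p = 0.877) and a sign that turned when fibrotic replicate 6, FLO replicate 1 or FLO replicate 6 was left out. Ccl3 and Ccl4, inflammatory macrophage products, had 0 to 11 and 3 to 17 counts per library and were not detected. Neither were Ccl7, Ccl8 and Ccl12, the rest of the monocyte and macrophage ligands. Of these Ccl7 had the most, 32 counts in FLO replicate 6 against 1 to 10 in the other 11 libraries.

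Ccr1 and Ccr2, receptors for several of these ligands, did not pass. Ccr2 had medians of 1.88 and 1.30 CPM and a log2 fold change of 0.44 (adjusted p = 0.279). Ccr1 had a log2 fold change of 0.63, and its SE of 0.578 was nearly as large (adjusted p = 0.379).

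The other 7 CC receptors were not detected. Ccr7, which guides dendritic and naive T cells to lymph nodes, had 1 to 13 counts per library, and Ccr10, the receptor of Ccl27a, had 0 to 8 in OBOB_Fibrotic and 4 to 13 in OBOB_FLO. Ccr3, the receptor of Ccl24 on eosinophils, had 0 to 4. Ccr4, Ccr6, Ccr8 and Ccr9 never passed 4.

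Cx3cr1 (ENSMUSG00000052336), the fractalkine receptor of monocytes and some tissue macrophages, ran from 0.866 to 3.60 CPM (median 1.67) in OBOB_Fibrotic and from 0.383 to 1.28 (median 0.674) in OBOB_FLO. The ranges overlapped, though all 6 fibrotic libraries lay above the FLO median, 4 of them above every FLO library. It rose 2.56-fold (log2 fold change 1.36, SE 0.367, adjusted p = 0.00593). This call was fragile: it held in 4 of the 12 fits that left out 1 library, was lost without fibrotic replicate 1, 4 or 6 or FLO replicate 1, 2, 4, 5 or 6 (highest adjusted p 0.0156), and held without FLO replicate 3 (1.59, adjusted p = 0.00324). The log2 fold change stayed between 1.10 and 1.59 in all 12. The gene shares 78 exonic bases with Gm33858 on the opposite strand, which had at most 0.0509 CPM in any library. Its ligand Cx3cl1, a membrane-bound chemokine shed by Adam10 and Adam17, had medians of 2.01 and 1.74 CPM and a log2 fold change of 0.69 that did not pass (adjusted p = 0.102). Xcr1, which marks cross-presenting dendritic cells, and its ligand Xcl1 had at most 8 and 4 counts.

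Macrophage markers also differed between the groups. Of 8 Kupffer cell markers 7 were called higher (Timd4 was not), none was at 0, and they summed to 261 to 526 CPM in OBOB_Fibrotic and 214 to 251 in OBOB_FLO. Of the 7 tested among 8 markers of monocyte-derived macrophages, a list that includes Ccr2 itself, 2 were called higher (Lyz2 and Spp1, 28.6% against 29.9% of all genes), Itgam was at 0 in a library, and the sums were 144 to 343 and 92.0 to 166 CPM. Spp1 was also on the cholangiocyte list and held 70.3 to 238 and 39.8 to 76.1 CPM of these sums. The part of the macrophage markers in the values of Ccl6, Ccl9, Ccl24, Cx3cr1 and Ccl2 was not tested, and no relation across libraries was computed.

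**Figure D4:**
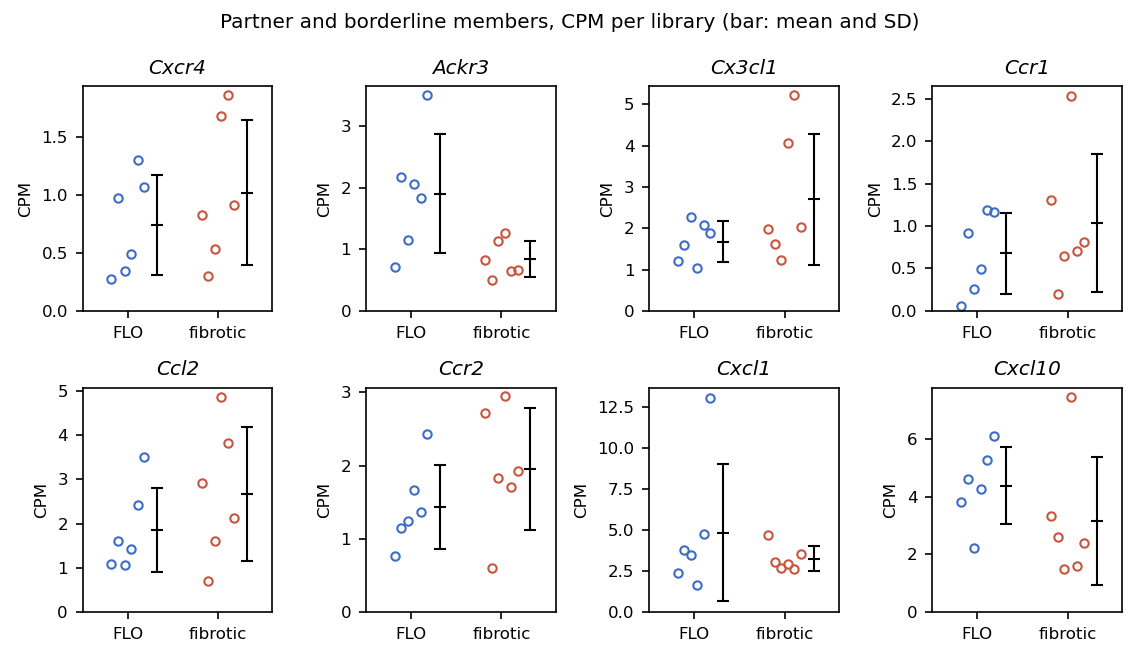
CPM per library of Cxcr4, Ackr3, Cx3cl1, Ccr1, Ccl2, Ccr2, Cxcl1 and Cxcl10, members that did not pass, as points with the mean and SD as bars (6 libraries per group, linear axes). The groups overlap in every panel. Cxcl1 in FLO replicate 6 (13.1 CPM) and Cxcl10 in fibrotic replicate 4 (7.44 CPM) stand apart from their groups.

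Cxcr1 (ENSMUSG00000048480), a receptor for neutrophil-attracting CXC ligands, showed the largest fold change of the family, from very low levels. Its counts in the fibrotic libraries were 11, 13, 18, 42, 22 and 31, and in the FLO libraries 0, 3, 4, 3, 2 and 7. The groups did not overlap, with 0.533 to 1.97 CPM (median 1.04) against 0 to 0.356 (median 0.159). The log2 fold change was 2.76 (SE 0.477, adjusted p = 0.000189), or 6.76-fold, and all 12 fits without 1 library called it. Cxcr1 met the detection rule through the fibrotic group alone, with 10 or more counts in exactly 6 libraries.

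Neutrophil markers were sparse. Of 6, only S100a9 and Csf3r could be tested, Csf3r was called higher (log2 fold change 0.71, adjusted p = 0.00891), and Ly6g, Retnlg and Mpo were at 0 in some libraries. Ly6g had 0 counts in all 6 FLO libraries and at most 3 in a fibrotic library. The 6 summed to 3.07 to 7.44 CPM in OBOB_Fibrotic and 1.64 to 5.94 in OBOB_FLO, and their part in the Cxcr1 difference was not tested. Cxcr2, the other neutrophil receptor of this class and a close relative of Cxcr1, had 0 to 7 counts in OBOB_Fibrotic and 0 to 5 in OBOB_FLO.

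Of 5 ligands of that receptor class 1 was detected. Cxcl1, a neutrophil attractant that hepatocytes and endothelium make on cytokine stimulation, ran from 2.67 to 4.70 CPM (median 3.0) in OBOB_Fibrotic and from 1.67 to 13.1 (median 3.63) in OBOB_FLO. The FLO spread came from replicate 6, and the log2 fold change of -0.57 (adjusted p = 0.261) became 0.03 without that library. Cxcl2 had 0 to 11 counts, Cxcl5 0 to 4, Cxcl3 at most 2, and Cxcl15 none.

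Cxcl9 and Cxcl10, which are induced by interferons and recruit Cxcr3-bearing T and NK cells, were not higher in OBOB_Fibrotic. Cxcl9 had medians of 6.50 and 7.33 CPM and a log2 fold change of -0.17 (adjusted p = 0.449). Cxcl10 ran from 1.51 to 7.44 CPM (median 2.49) in OBOB_Fibrotic and from 2.23 to 6.09 (median 4.43) in OBOB_FLO. In 5 of 6 fibrotic libraries it lay under the FLO median, the exception being replicate 4. Its log2 fold change was -0.46 (adjusted p = 0.295) with that library and -0.92 (adjusted p = 0.00815) without it. The related Cxcl11, counted here although it is annotated as a pseudogene, differed by -0.08 on the log2 scale (SE 0.307) and did not pass either (adjusted p = 0.845). Cxcr3 itself had 3 to 19 counts and was not detected. Markers of T and NK cells summed to 1.87 to 5.37 and 1.48 to 5.80 CPM, with 0 of the 2 tested called and Cd8a, Klrb1c and Ncr1 at 0 in some libraries.

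Other homeostatic CXC ligands did not pass. Cxcl16, a membrane-bound ligand of Cxcr6 and a scavenger receptor, had medians of 8.83 and 6.64 CPM (log2 fold change 0.42, adjusted p = 0.106). Cxcl14 had medians of 2.81 and 2.56 CPM (log2 fold change 0.48, adjusted p = 0.211). Cxcr6, which liver-resident T and NKT cells carry, had 5 to 19 counts and reached 10 in 5 libraries, 1 short of detection. Ccl4 and Ccl21b also reached 10 in 5. Cxcl13, the B cell attractant, had 32 counts in fibrotic replicate 4 and 0 to 11 in the other libraries, its receptor Cxcr5 had 0 to 7, and Cxcl17 had at most 2.

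Ccl24 (ENSMUSG00000004814), or eotaxin-2, a macrophage product that attracts eosinophils, ran from 0.866 to 1.99 CPM (median 1.19) in OBOB_Fibrotic and from 0.345 to 0.711 (median 0.485) in OBOB_FLO. The groups did not overlap. It rose 2.47-fold (log2 fold change 1.30, SE 0.273, adjusted p = 0.000948), and was called in all 12 fits that left out 1 library. Its counts were small, 17 to 41 in OBOB_Fibrotic and 6 to 14 in OBOB_FLO, and fibrotic replicate 1 was highest. Ccl24 met the detection rule only with its fibrotic libraries, so its higher values there are not independent of that rule. The other eotaxins were at or near 0, with at most 1 count of Ccl11 and none of Ccl26.

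Ccl27a (ENSMUSG00000073888), a chemokine known best from skin, where keratinocytes make it to attract Ccr10-bearing T cells, ran from 0.506 to 1.58 CPM (median 1.01) in OBOB_Fibrotic and from 4.71 to 6.98 (median 5.99) in OBOB_FLO. The lowest FLO library was far above the highest fibrotic one. It fell by 2.57 on the log2 scale (SE 0.257, adjusted p = 1.19e-06), or 5.95-fold, and by 2.52 without FLO replicate 3. Its last bases (chr4:41769467-41774247, minus strand, GRCm38) share 8 exonic bases with Il11ra1 on the opposite strand, whose own log2 fold change was -0.23 (adjusted p = 0.136). The near-identical copy Ccl27b was not analysed here, so reads of the pair could not be assigned between them and the value is uncertain to that extent.

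Ligands of lymphoid and mucosal tissue showed no further call. Ccl19, which with Ccl21a guides cells through Ccr7, had a log2 fold change of 0.33 (adjusted p = 0.406), and Ccl21a one of -0.42 (adjusted p = 0.459). Without FLO replicate 3, the library highest in Ccl21a, the Ccl21a value was -0.19 (adjusted p = 0.768). Ccl21b, nearly identical to Ccl21a, had 0 counts in 7 libraries and 13 to 30 in the other 5, so the split of reads between these copies is uncertain. Ccl25, the gut and thymus ligand of Ccr9, had medians of 2.48 and 2.04 CPM and a log2 fold change of 0.01 (adjusted p = 0.979) whose sign depended on the normalization. Ccl22 had 0 to 12 counts, Ccl28 and Ccl17 had at most 5 and 3, and Ccl1 had none. Ccl20, the ligand of Ccr6, had 1 to 3 counts in 5 fibrotic libraries and 1 count in a single FLO library.

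All 4 atypical receptors were detected. Ackr2 (ENSMUSG00000044534), which internalizes and degrades inflammatory CC chemokines, ran from 3.58 to 6.68 CPM (median 5.13) in OBOB_Fibrotic and from 2.01 to 2.81 (median 2.39) in OBOB_FLO. Every fibrotic library exceeded every FLO library, and Ackr2 rose 2.15-fold (log2 fold change 1.11, SE 0.176, adjusted p = 9.07e-05). Without FLO replicate 3 the change was 1.06 (adjusted p = 0.000316). Ackr4, a scavenger of Ccl19, Ccl21 and Ccl25, had medians of 2.03 and 0.952 CPM and a log2 fold change of 0.90 that did not pass (adjusted p = 0.0609). Ackr1, the Duffy antigen of erythrocytes and venules, lay under the FLO median in all 6 fibrotic libraries, with a log2 fold change of -0.57 (adjusted p = 0.0588). The atypical receptors therefore did not share a direction, with positive values for Ackr2 and Ackr4 and negative ones for Ackr1 and Ackr3.

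In all, 32 members were not detected, 3 of them (Ccl1, Ccl26 and Cxcl15) without a count in any library. In total 21 never reached 10 counts, and 11 reached 10 in at least 1 library without meeting the rule. No change in these members was detectable at this depth.

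Genes that induce chemokines were examined in a list of 40 (Tnf, interleukin-1, interferon-gamma and Toll-like receptor signalling and NF-kappaB), of which 36 were tested. In it 5 were called higher and 1 lower (16.7%), with a median log2 fold change of 0.11. Il1rap, the shared subunit of interleukin-1 family receptors, had the largest change, -2.07 (adjusted p = 2.74e-07). The lymphotoxin receptor Ltbr rose by 0.95, Tlr2, a receptor for bacterial lipoproteins, by 0.92, and the adaptor Traf6 by 0.91. Il1b stood at 0.03 (adjusted p = 0.958) and the NF-kappaB target Nfkbia at 0.04 (adjusted p = 0.784). Tnf was too low to test, with 0 to 16 counts in OBOB_Fibrotic and 1 to 7 in OBOB_FLO.

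Of 43 genes that signal below chemokine receptors, 41 were tested, 9 were called higher and 1 lower (24.4%), with a median of 0.35. The inhibitory G protein subunit Gnai1 rose by 1.71 on the log2 scale, the receptor kinases Grk3 and Grk5 by 1.39 and 0.93, and the Rac effector kinase Pak1 by 1.28. Among 24 further genes of the field with other symbols, 20 were tested, 3 called higher and 1 lower (20%), with a median of 0.29. The formyl peptide receptor Fpr1 rose by 0.86, Cmtm7 by 0.73 and the sheddase Adam10 by 0.53, whereas Rarres2, which encodes the hepatocyte-made attractant chemerin, fell by 0.72 (adjusted p = 0.000411). Pf4 (0.33, adjusted p = 0.317) and the chemerin-binding receptor Ccrl2 (0.64, adjusted p = 0.0432) did not pass, and Ppbp had 1 to 9 counts. Dpp4, the peptidase that trims and inactivates Cxcl12, had a log2 fold change of -0.46 (adjusted p = 0.00428), within the fold threshold. At the main thresholds, the share called in each list was under the 29.9% of all genes.

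**Figure D5:**
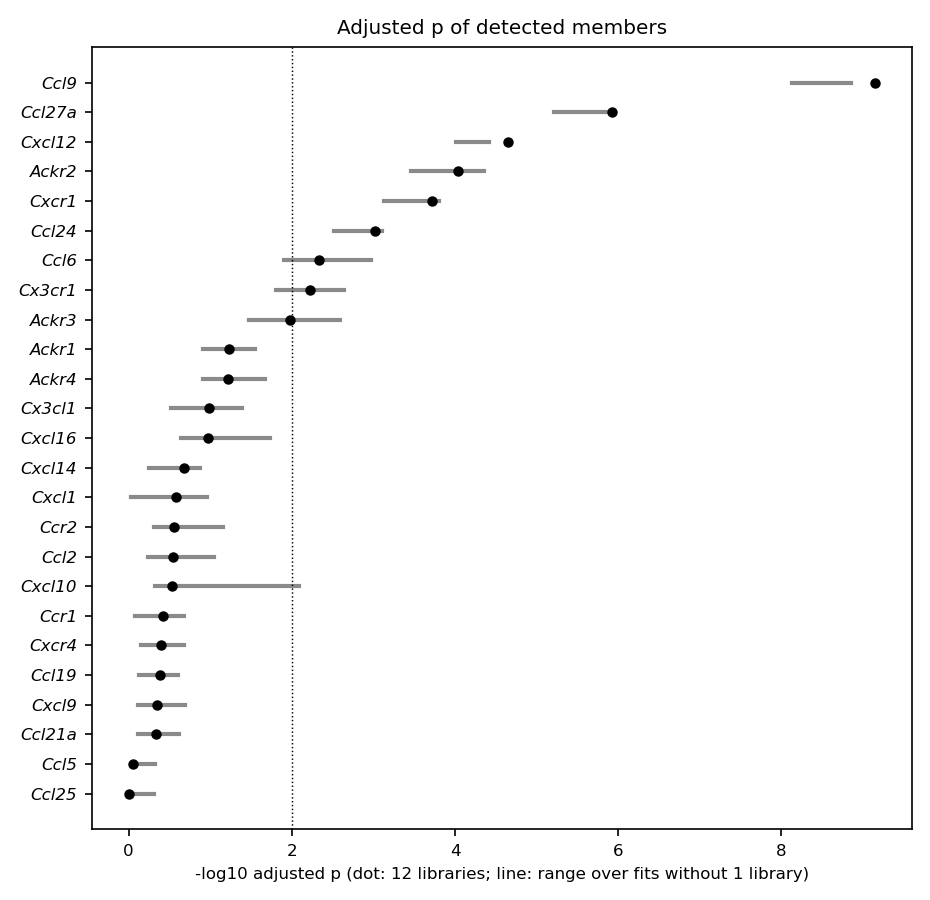
Adjusted p (-log10 scale) of the detected members reported here with all 12 libraries (dot) and its range over the 12 fits that left out 1 library (line). The dotted line marks the threshold of 0.01. Cx3cr1, Ccl6, Ackr3 and Cxcl10 have lines that cross it.

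Of the 8 called members, 6 (Cxcr1, Ccl24, Ackr2, Cxcl12, Ccl9 and Ccl27a) were called in all 12 fits without 1 library, Ccl6 in 10 and Cx3cr1 in 4. All 8 were called without FLO replicate 3. Among members not called with all 12 libraries, Ackr3 was called in 3 of these fits and Cxcl10 in 1.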

How the data were processed

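The authors deposited 1 table of raw counts per Ensembl gene for 12 poly(A) liver libraries, not normalized. The submitters' processing notes name STAR 2.7.3a, bcl2fastq and build mm10, and the methods name PISCES for RNA-seq. The annotation and use of strand are not given in the sources used here. Symbols came from a separate name table that matched 51745 of 56205 identifiers, and those without a symbol held 0.0587% of counts. Coordinates and lengths are from GENCODE M21 (GRCm38).

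The quasi-likelihood test of edgeR 4.0.16 (R 4.3.3) was fitted to all genes with robust estimation, TMM factors and filterByExpr, and p-values were adjusted by Benjamini-Hochberg over 13416 genes. The thresholds follow the study's methods. The SE is the absolute log2 fold change divided by the square root of F. Alternatives were RLE and upper quartile scaling, other filters and thresholds, DESeq2 1.42.0, limma-voom (limma 3.58.1), non-robust estimation, the replicate number as a block, and omission of each library in turn. Titles give group and replicate, nothing states separate batches or litters, and p-values measure the spread between these samples. No within-group pair of libraries agreed within sampling noise (smallest chi-square per degree of freedom 10.7 over 30 pairs).

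Members, roles, pathway lists and markers were chosen with earlier results of these data known. All called members are named with full values, tested members by log2 fold change and adjusted p, undetected ones by counts (1 detected member that was not called enters the counts but is not reported here), and from each pathway list the 4 largest called changes plus Tnf, Il1b, Nfkbia, Pf4, Ppbp, Ccrl2 and Dpp4.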

Additional observations from a re-analysis of the deposited data

Results flagged for a closer look

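Among 52 sets of 6 libraries (26 detected members in each group), 4 held a library whose gap to its nearest neighbour, divided by the range of the set, was above Dixon's limit of 0.625, where chance gives about 2.6. Ccl24 was highest in fibrotic replicate 1, at 1.99 CPM against 1.27 in the next library (0.644 of the range). Cxcl10 was highest in fibrotic replicate 4, at 7.44 against 3.35 CPM (0.69). Cxcl1 was highest in FLO replicate 6, at 13.1 against 4.74 CPM (0.73). Cxcl12 was highest in FLO replicate 3, the library with Xist counts, at 210 against 173 CPM (0.668).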

How the results depend on the processing

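The number of called members was 8, 6 to 9 without 1 library and 7 to 10 over the other alternatives. Calls of higher members ranged from 3 to 6 without 1 library, with 3 without fibrotic replicate 6 or FLO replicate 1, and calls of lower members from 3 to 5, with 5 without fibrotic replicate 4. Over all genes 3798 to 4093 were called without 1 library and 3780 to 5215 otherwise. At an adjusted p of 0.05, 17 of the 41 receptor signalling genes and 8 of the 20 genes with other symbols were called. Both shares were above that of all genes, since at most 5215 of the 13416 tested genes were called. With no fold threshold 16 and 7 were called, and again at most 5215 of the 13416 genes. Without 1 library these lists gave 8 to 12 and 3 to 5, and the inducers 5 to 7. Over the other alternatives the inducers gave 5 to 9, with 36 tested in the main fit. No list was tested as a set. Relaxing detection to 1 count in any library gave 55 members, and 10 counts in all 6 libraries of either group gave 23. The difference in total counts ranged from -2220927 (without FLO replicate 2, exact permutation p = 0.0498) to -913139.

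The sign turned for Ccl25 under RLE (-0.0112), upper quartile scaling (-0.0198) and DESeq2 (-0.00856), and without 1 library it ran from -0.111 to 0.192. Without 1 library Ccl5 ran from -0.158 to 0.304 and Cxcl1 from -0.75 to 0.0291. Cx3cr1 was not called by limma-voom (adjusted p = 0.0157). The cause was not tested. Same-numbered samples did not deviate together in expression (r -0.162 to 0.104, none of the 6 correlating best with its own number). These correlations cannot show whether the numbers mark a shared litter or batch. With the replicate block, 8 members were called, 5 higher and 3 lower, and over all genes 3780 were called. Cx3cr1 was not among these members (adjusted p = 0.0207), so the set differed from that of the main fit. DESeq2 also called Ackr3 (adjusted p = 0.00366). Over the alternatives that kept both thresholds and all libraries, adjusted p ran from 0.00177 to 0.0207 for Cx3cr1 and from 0.00366 to 0.0318 for Ackr3. Members with a few counts per library could show only large changes at this depth.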
